A study of Mus musculus with 6 samples.

Results

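The hedgehog pathway genes described here are Shh, which encodes the ligand Sonic hedgehog, the receptor genes Ptch1 and Smo, the co-receptor genes Cdon and Boc, the ligand trap gene Hhip, and the transcription factor genes Gli1, Gli2 and Gli3. They were taken by name, not by their values, and all 9 were found among the 39179 genes of the count tables. All 9 also passed the filter on low counts, which kept 16691 genes. Bulk RNA sequencing in 6 libraries had been done on retinas of newborn mice at postnatal day 0.5, of mixed and mainly CD-1 strain. By the labels all 6 samples carried Lhx2 lox/lox, the floxed allele of the LIM homeodomain gene Lhx2. The 3 conditional knockout (cKO) samples also carried Pdgfrα-Cre, a recombinase transgene named for Pdgfra, and the 3 controls, called wild type in the series text, did not. The libraries are called control 2, 3 and 4 and cKO 1, 2 and 3 after their label numbers. The labels do not say whether a library came from a single animal, so p-values measure the spread between these libraries.

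Hedgehog ligands bind the receptor Patched, which otherwise holds Smoothened inactive. Released Smoothened acts in the primary cilium, stops the processing of Gli3 into a repressor and activates Gli2, and Gli1, Ptch1 and Hhip are then transcribed as targets. In the developing retina Sonic hedgehog is made mainly by ganglion cells and acts on dividing progenitors and on optic nerve astrocytes. Ptch1 and Hhip limit the signal, while Cdon and Boc present the ligand to the receptor.

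The libraries held 31483170 to 66947478 gene counts and fell into 2 sets that cross genotype, are named by no label and were drawn from the share of ambiguous counts. Set A (control 2, cKO 1 and cKO 2) had 3.13 to 3.20% of all deposited counts ambiguous between genes, and set B (control 3, control 4 and cKO 3) had 2.63 to 2.69%. The mitochondrial share of gene counts also parted the sets, at most 1.79% for set A libraries and at least 7.14% for those of set B. Library set was therefore a term of the model, a choice made with earlier results of these data known. Y-linked genes summed to 215 and 375 CPM in controls 2 and 4, here called male. They were at 0.196 CPM or less in the other 4 libraries, here called female. If a library held more than 1 animal, those called male may also hold female RNA. The only control of set A was thus male while its cKO libraries were female. Lhx2 itself was at 399, 266 and 258 CPM (read counts scaled to a common library size) in controls 2, 3 and 4, against 252, 287 and 224 CPM in cKO 1, 2 and 3. With library set as a term the log2 fold change of Lhx2 was -0.40 (SE 0.10, adjusted p = 0.0338, edgeR). Set A alone gave -0.57 and set B alone -0.22. It was not called with genotype alone (-0.27, adjusted p = 0.817, edgeR) or with sex added (-0.34, 0.371). No source names the exons between the lox sites, so the gene count need not follow the deletion.

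Transcripts of the transducer gene Smo, the co-receptor gene Cdon and the factor genes Gli1 and Gli2 were lower in the cKO retinas, and the ligand transcript was not. With library set as a term, Gli1, Gli2, Smo and Cdon fell (4 of 9 genes), none rose, and Shh, Boc, Ptch1, Hhip and Gli3 did not pass the threshold of adjusted p under 0.05 (edgeR's quasi-likelihood test, Benjamini-Hochberg adjustment over all 16691 genes). Over all genes 5.63% were called lower and 6.36% higher in that comparison. The median log2 fold change of the 9 genes was -0.43, against -0.00098 over all genes tested. All cKO libraries lay below all controls for 5 of the 9 genes (Gli1, Gli2, Ptch1, Smo and Cdon), an arrangement that 5.54% of all genes showed. In such bulk samples fewer cells of a type and less RNA per cell cannot be told apart. With genotype alone in the model none of the 9 was called, where 0% of all genes were called lower; at an unadjusted p under 0.05 that edgeR fit had 4 of the 9 lower and none higher, and DESeq2 with genotype alone called none of the 9. With sex as a further term Gli1 alone of the 9 was called, against 0.377% of all genes called lower.

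**Figure D1:**
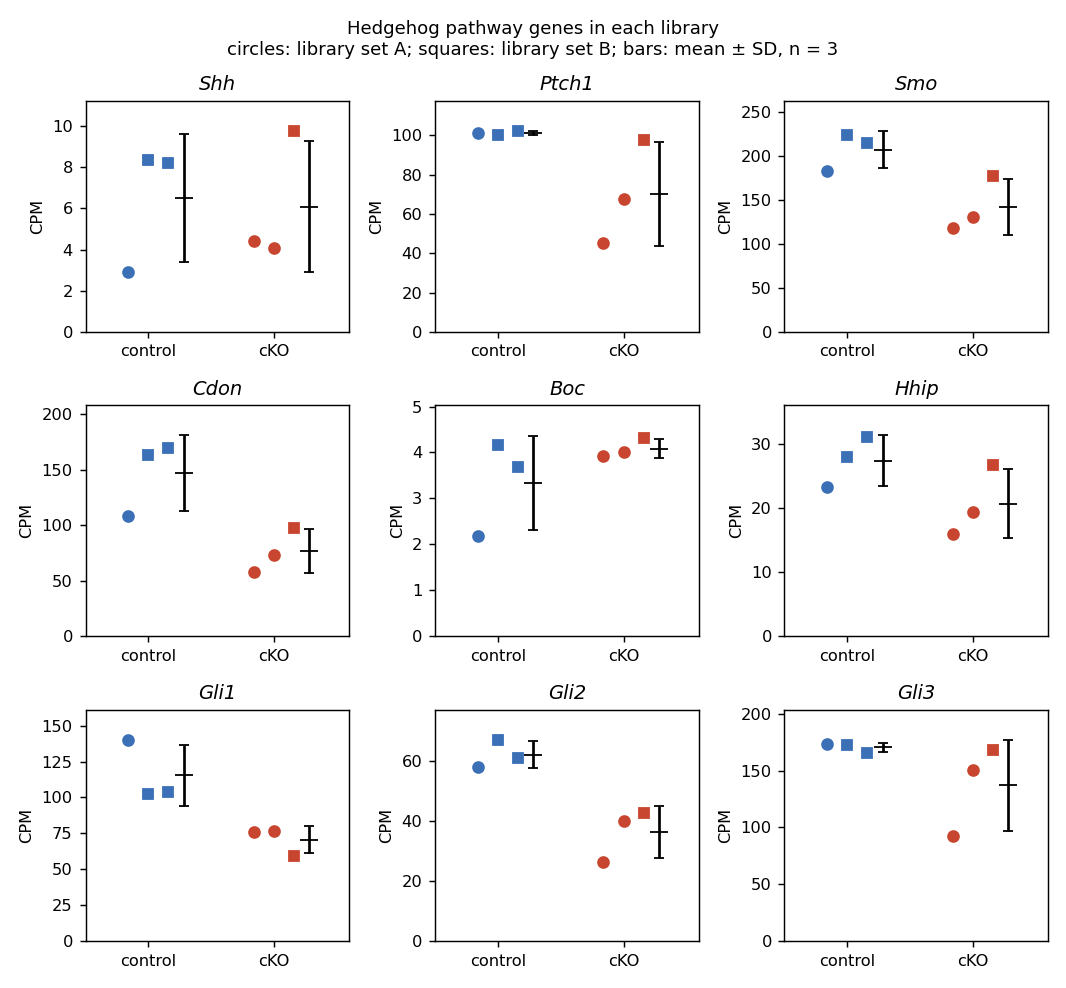
Each panel plots 1 gene, with CPM on a linear axis from 0, controls in blue and cKO in red; circles are set A libraries, squares set B libraries, and bars the mean ± SD of 3 libraries. The cKO points lie below every control for Gli1, Gli2, Smo, Cdon and Ptch1, with cKO 3 closest to the controls for Ptch1 at 97.9 CPM, and the Shh points part by library set.

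Gli1, the transcription factor whose own transcription is the common readout of pathway activity, had the smallest p of the 9 genes. Gli1 (ENSMUSG00000025407; GRCm38 chromosome 10, 127329882 to 127341974, minus strand) was counted at 140, 102 and 104 CPM for controls 2, 3 and 4, whereas it was 76.0, 76.4 and 59.5 CPM in cKO 1, 2 and 3. The groups did not overlap, and control 2 was the highest and cKO 3 the lowest library. The group means were 115 ± 21.3 CPM and 70.7 ± 9.65 CPM (SD, n = 3). The log2 fold change was -0.84 (SE 0.08, adjusted p = 0.000454, edgeR), a level 44.0% lower. Set A alone gave -0.88 and set B alone -0.79. Gli1 was also the gene that kept its call with sex in the model (-0.80, SE 0.13, adjusted p = 0.0362, edgeR) and without any single library (-0.86 to -0.79). An antisense transcript, Gm47200, overlaps 5.31% of the Gli1 exon length and was not analysed here.

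Gli2, the main activator of the pathway, fell, while Gli3, whose processed form is its main repressor, did not pass; the difference between them was not tested. Gli2 (ENSMUSG00000048402; GRCm38 chromosome 1, 118834132 to 119053619, minus strand) stood at 58.2, 67.1 and 61.1 CPM in control libraries 2, 3 and 4, against 26.3, 39.9 and 42.9 CPM in cKO 1, 2 and 3. Every cKO library was below every control, with cKO 1 the lowest. Gli2 fell (log2 fold change -0.70, SE 0.15, adjusted p = 0.0205, edgeR), from 62.1 ± 4.52 to 36.4 ± 8.83 CPM (SD, n = 3), a level 38.4% lower. Omitting control 2 (-0.58, adjusted p = 0.194), control 3 (-0.70, 0.0638) or cKO 3 (-0.79, 0.113) ended the call, and so did a sex term (-0.73, 0.201).

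Gli3 (ENSMUSG00000021318; GRCm38 chromosome 13, 15463235 to 15730026, plus strand) stood at 173, 173 and 166 CPM in control libraries 2, 3 and 4, against 92.2, 151 and 169 CPM in cKO 1, 2 and 3. The controls lay close together, cKO 1 was far below them and cKO 3 lay among them. The log2 fold change of Gli3 was -0.26 (95% interval -0.67 to 0.15, adjusted p = 0.411, edgeR); set A alone gave -0.51 and set B alone -0.01.

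Per kilobase of exon, Gli1 was above Gli3 in all 3 controls, at 28.0, 20.5 and 20.8 CPM per kb against 18.1, 18.0 and 17.3 CPM per kb. In the cKO retinas Gli1 was at 15.2, 15.3 and 11.9 CPM per kb and Gli3 at 9.62, 15.7 and 17.6 CPM per kb, so that Gli1 was above Gli3 in cKO 1 alone. Of the CPM per kb summed over the 3 Gli genes, Gli1 made up 51.4, 42.4 and 44.3% in controls 2, 3 and 4 and 53.1, 41.5 and 33.4% in cKO 1, 2 and 3, and these shares overlapped. Gli2 made up the smallest share of the sum in every library, 13.4 to 20.3%.

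Promoter sequences are shown for Gli2 and Smo, which fell, beside Hhip, a target that did not pass, to set the members' start regions side by side. Each is the 250 bases before a RefSeq gene start (GRCm38.p6), written 5′ to 3′ on the gene's strand, with CG dinucleotides in capitals. They lie at chr1:119053620-119053869 (minus strand), chr6:29735247-29735496 (plus strand) and chr8:80058009-80058258 (minus strand).
Gli2: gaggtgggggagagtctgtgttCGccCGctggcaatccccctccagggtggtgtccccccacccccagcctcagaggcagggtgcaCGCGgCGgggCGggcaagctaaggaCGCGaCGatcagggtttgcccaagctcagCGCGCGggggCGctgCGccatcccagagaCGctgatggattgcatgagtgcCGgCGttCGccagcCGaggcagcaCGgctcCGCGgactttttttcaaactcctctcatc
Smo: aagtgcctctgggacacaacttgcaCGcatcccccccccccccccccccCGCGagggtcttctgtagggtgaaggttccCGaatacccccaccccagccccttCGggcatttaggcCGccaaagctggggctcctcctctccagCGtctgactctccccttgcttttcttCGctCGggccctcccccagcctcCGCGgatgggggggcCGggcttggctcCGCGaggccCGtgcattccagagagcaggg
Hhip: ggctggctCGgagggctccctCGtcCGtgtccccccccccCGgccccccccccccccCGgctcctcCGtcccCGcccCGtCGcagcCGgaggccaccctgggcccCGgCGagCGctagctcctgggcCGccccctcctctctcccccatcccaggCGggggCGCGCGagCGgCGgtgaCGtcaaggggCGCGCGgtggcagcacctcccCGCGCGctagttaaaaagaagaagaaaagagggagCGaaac

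The Gli2, Smo and Hhip windows held 22, 15 and 28 CG dinucleotides and 67.2, 68.4 and 76% G and C, against medians of 6 and 52.4% over all 32851 RefSeq windows. RefSeq windows matched 6 of the 9 genes: Gli2, Gli3, Smo, Hhip, Cdon and Ptch1. The windows of Gli3, Ptch1 and Cdon held 34, 41 and 1. Those 3 start inside the GENCODE gene, so other starts of these 3 genes were not covered. The letters GACCACCCA, the binding site of Gli proteins, their inner part CCACCCA, and TAATTA, a core that LIM and other homeodomain proteins bind, were searched on both strands from 250 bases before to 50 after the start. None of the 6 windows held any of the 3, while 0.253, 9.3 and 5.29% of all windows did. CCACCCA lies within GACCACCCA, so each match of the longer motif also counts for the shorter.

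Smo encodes the seven-pass transducer that passes the signal on to the Gli proteins, and its transcript was the most abundant of the 9 per kilobase of exon. Smo (ENSMUSG00000001761; GRCm38 chromosome 6, 29735503 to 29761365, plus strand) stood at 183, 223 and 215 CPM in control libraries 2, 3 and 4, against 118, 130 and 177 CPM in cKO 1, 2 and 3. The groups did not overlap, although cKO 3 came close to control 2. Smo fell by 26.0% (log2 fold change -0.43, SE 0.09, adjusted p = 0.0152, edgeR), and by set the values were -0.56 (set A) and -0.31 (set B). It no longer passed when control 2 (-0.31, adjusted p = 0.233), control 3 (-0.45, 0.0508) or cKO 3 (-0.53, 0.0615) was omitted, or when sex was a term (-0.41, 0.239).

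Cdon and Boc encode related cell surface co-receptors of the ligand, of which Cdon fell and Boc did not pass. Cdon (ENSMUSG00000038119; GRCm38 chromosome 9, 35421128 to 35507652, plus strand) stood at 108, 163 and 170 CPM in control libraries 2, 3 and 4, against 58.2, 73.6 and 97.5 CPM in cKO 1, 2 and 3. Within each set the cKO libraries were far below the controls, while set B was higher than set A in both genotypes. Cdon was 40.2% lower (log2 fold change -0.74, SE 0.10, adjusted p = 0.00355, edgeR), and the sets gave -0.71 (A) and -0.77 (B). It did not pass when cKO 3 was omitted (-0.68, adjusted p = 0.0574) or sex was a term (-0.72, 0.0981).

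Boc (ENSMUSG00000022687; GRCm38 chromosome 16, 44485049 to 44558897, minus strand) was the scarcest of the 9, with 100 to 290 reads in a library. It stood at 2.19, 4.16 and 3.68 CPM in control libraries 2, 3 and 4, against 3.93, 4.01 and 4.32 CPM in cKO 1, 2 and 3. Control 2 stood below the other 5 libraries, and the groups overlapped. For Boc the fitted log2 fold change was 0.50 (95% interval -0.03 to 1.03, adjusted p = 0.213, edgeR), and without control 2 it was 0.14. The intervals of Cdon (-0.98 to -0.51) and Boc, before any adjustment, did not overlap, but the difference between these genes was not tested.

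Shh, the ligand gene, was higher in the cKO libraries of each set by a margin that did not pass the threshold. Shh (ENSMUSG00000002633; GRCm38 chromosome 5, 28456815 to 28467256, minus strand) stood at 2.93, 8.38 and 8.22 CPM in control libraries 2, 3 and 4, against 4.43, 4.06 and 9.77 CPM in cKO 1, 2 and 3, from 134 to 294 reads in a library. All 3 set A libraries lay below all 3 set B libraries, so the groups overlapped. The log2 fold change of Shh was 0.38 (SE 0.16, 95% interval 0.01 to 0.75 before any adjustment, adjusted p = 0.182, edgeR); set A alone gave 0.53 and set B alone 0.24. With genotype alone it was -0.10 (adjusted p = 0.951), so its sign depended on the library set term. Antisense and intergenic transcripts on the opposite strand (9530036O11Rik and Gm26894) overlap 15.7 and 12.7% of the Shh exon length. They were at 0.03 to 0.44 and 0.17 to 0.45 CPM. Whether reads were counted by strand is not known here, so reads of these stretches cannot be assigned with certainty.

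**Figure D2:**
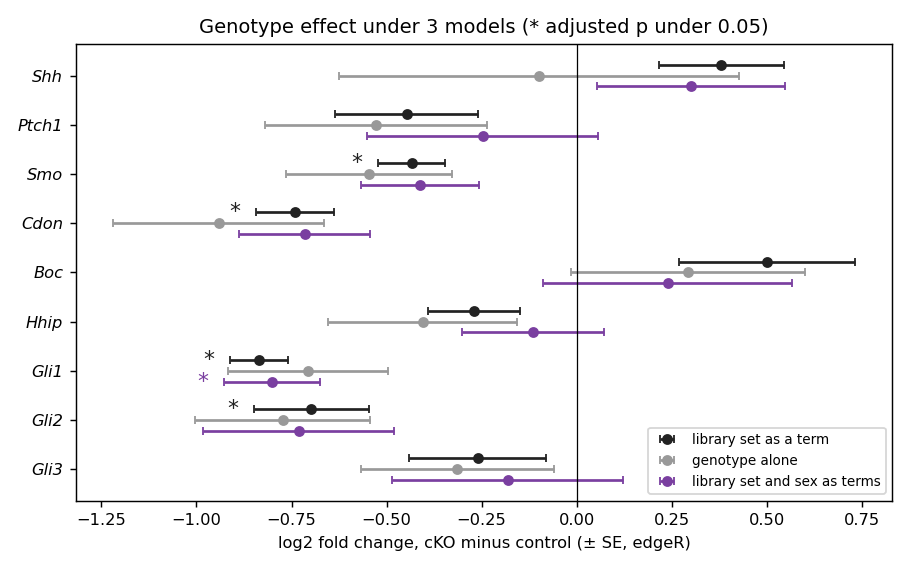
Points are edgeR log2 fold changes (cKO minus control) and bars their SE for the 9 genes, in black for the model with library set, in grey with genotype alone and in purple with library set and sex; stars mark adjusted p under 0.05. Gli1 lies between -0.84 and -0.71 in all 3 models, whereas Shh moves from 0.38 with library set to -0.10 with genotype alone.

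Ptch1 and Hhip are, with Gli1, the classic transcriptional targets of the pathway, and each encodes a protein that binds the ligand and damps the response. Ptch1 (ENSMUSG00000021466; GRCm38 chromosome 13, 63508328 to 63573598, minus strand) stood at 101, 100.4 and 102 CPM in control libraries 2, 3 and 4, against 45.2, 67.7 and 97.9 CPM in cKO 1, 2 and 3. The controls were almost level across sets, and the cKO libraries were spread from cKO 1, far below, to cKO 3, just under the controls. For Ptch1 the fit gave a log2 fold change of -0.45 (SE 0.19, 95% interval -0.87 to -0.02 before any adjustment, adjusted p = 0.171, edgeR); set A alone gave -0.84 and set B alone -0.05. The difference between the sets (0.79, SE 0.29) had an unadjusted p of 0.0230 and an adjusted p of 0.9748 over all genes in edgeR's interaction test.

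Hhip (ENSMUSG00000064325; GRCm38 chromosome 8, 79965851 to 80058006, minus strand) stood at 23.3, 27.9 and 31.1 CPM in control libraries 2, 3 and 4, against 16.0, 19.5 and 26.7 CPM in cKO 1, 2 and 3. The cKO 3 value lay between controls, so the groups overlapped, although each set's cKO libraries were below its controls. The fit gave Hhip a log2 fold change of -0.27 (95% interval -0.54 to 0.00, adjusted p = 0.195, edgeR); set A alone gave -0.39 and set B alone -0.15. Thus the 3 target genes had values of -0.88, -0.84 and -0.39 (Gli1, Ptch1, Hhip) within set A and of -0.79, -0.05 and -0.15 within set B. No test of the difference between genes was made.

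**Figure D3:**
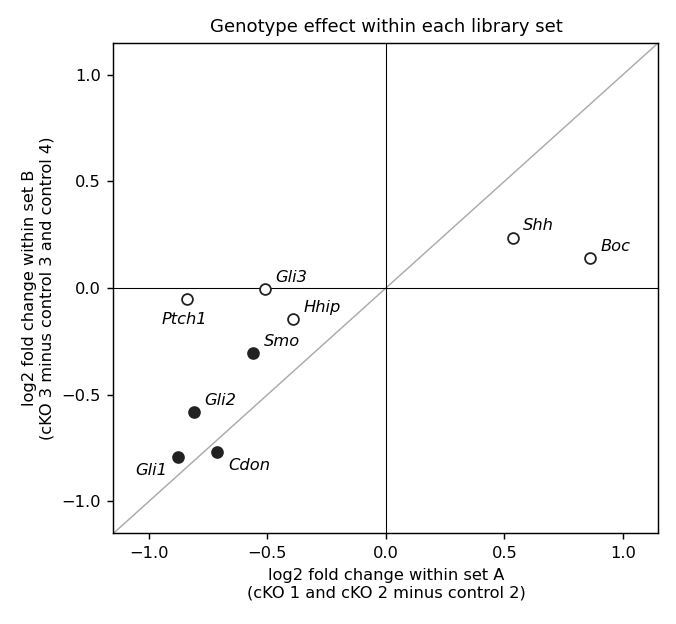
Each point is 1 of the 9 genes, with its edgeR log2 fold change (cKO minus control) within set A on the x axis and within set B on the y axis; filled points passed the test that had library set as a term, and a grey line marks equal values. Gli1, Cdon and Gli2 lie near the line at or below -0.58, whereas Ptch1 is at -0.84 within set A and at -0.05 within set B.

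Set B alone holds a comparison of females, control 3 with cKO 3, beside a male control. Between control 4 (male) and control 3 (female) the log2 CPM of the 9 genes differed by -0.18 (Boc) to 0.15 (Hhip). From control 3 to cKO 3, Gli1 differed by -0.78, Cdon by -0.74, Gli2 by -0.65 and Smo by -0.33 on that scale. The same pair gave -0.03 for Gli3, -0.04 for Ptch1, -0.07 for Hhip, 0.06 for Boc and 0.22 for Shh. These are single libraries and carry no test.

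Between the library sets 5 of the 9 genes were called. Shh was higher in set B by 1.35 in log2 (SE 0.16, adjusted p = 0.000102, edgeR with genotype in the model). Cdon (0.59), Hhip (0.46) and Smo (0.39) were also called higher in set B, and Gli1 was called lower in set B (-0.40, adjusted p = 0.00145). Of all genes 32.5% were called higher and 31.2% lower in set B, so such calls are common.

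Transcripts of the targets Gli1, Ptch1 and Hhip, and of the transducer gene Smo, were lower relative to the ligand transcript in the cKO libraries of each set. The log2 ratio of Gli1 to Shh CPM was 5.56, 3.60 and 3.65 in controls 2, 3 and 4 and 4.09, 4.22 and 2.60 in cKO 1, 2 and 3. Within set A the cKO ratio was 1.40 lower than that of control 2 (log2 difference -1.40), and within set B the difference was -1.03. For Ptch1 to Shh these differences were -1.40 and -0.29, and for Hhip to Shh -0.93 and -0.38. For Smo to Shh they were -1.09 and -0.54. Within set B the fitted values were -0.05 for Ptch1, -0.15 for Hhip and 0.24 for Shh. Much of those 2 ratios' fall there thus came from Shh, which did not pass and whose sign depended on the library set term. Across sets the groups overlapped, and the low Shh count of control 2 (134 reads) enters each ratio of that library.

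Levels per kilobase of exon, the scale on which genes can be compared, ran over a wide range in controls. The order in controls was Smo (36.9 CPM per kb), Gli1 (23.1), Cdon (19.0), Gli3 (17.8), Gli2 (9.05), Ptch1 (7.14), Hhip (3.03), Shh (2.29) and Boc (0.751). Among neighbours the libraries overlapped for Gli1 and Cdon, Cdon and Gli3, and Hhip and Shh. In the cKO retinas the order was Smo (25.2), Gli3 (14.3), Gli1 (14.1), Cdon (9.91), Gli2 (5.29), Ptch1 (4.95), Hhip (2.29), Shh (2.14) and Boc (0.918), with overlaps of Gli3 and Gli1, Gli1 and Cdon, Gli2 and Ptch1, and Hhip and Shh. The exon length of Ptch1 sums alternative ends to 14185 bases, which lowers its value on this scale.

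Most genes of the wider pathway did not pass, and the calls lay among its receptors, Gpc3 and target genes. Of 68 further pathway genes 63 were tested, of which 7 fell, 5 rose and 51 missed the threshold in the fit with library set (median log2 fold change -0.03). Over all genes that fit called 5.63% lower and 6.36% higher. With genotype alone none of the 63 was called, and with sex as a term 1 rose (Sfrp1) and 1 fell (Hes1).

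Of the other receptor genes Gas1 and Lrp2 are described. Gas1, a membrane-anchored co-receptor, was at 99.2, 96.0 and 62.7 CPM for controls and 59.5, 67.8 and 53.2 CPM for cKO 1, 2 and 3 (-0.61, SE 0.15, adjusted p = 0.0343, edgeR). Lrp2, the endocytic receptor megalin, which can take up Shh, rose from 6.59 ± 2.21 to 13.3 ± 1.06 CPM (0.94, SE 0.21, adjusted p = 0.0210, edgeR; SD, n = 3). Together with the receptor genes above, Cdon, Gas1 and Smo fell, Lrp2 rose, and Boc and Ptch1 did not pass. Gas1 lost its call without control 2 (-0.58, adjusted p = 0.205, edgeR), control 3 (-0.48, 0.0555) or cKO 3 (-0.61, 0.208), and Lrp2 without cKO 3 (0.56, 0.297).

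The other ligand genes were scarce. Ihh, made in cartilage and gut, was at 0.10 to 0.66 CPM in all 6 libraries (log2 fold change 0.47, adjusted p = 0.612, edgeR). Dhh, the ligand of nerve sheath and endothelial cells, stood at 0.48, 0.12 and 0.56 CPM in control libraries 2, 3 and 4, against 1.499, 1.69 and 0.89 CPM in cKO 1, 2 and 3, with no overlap (1.58, SE 0.48, adjusted p = 0.0673, edgeR). Of 8 genes for lipidation, release and binding of ligand on the cell surface, the glypican gene Gpc3 fell (-0.77, SE 0.17, adjusted p = 0.0211) and the other 7 did not pass. Gpc3 lost its call without control 2 or control 3.

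Cytoplasmic transduction genes showed no call. Of 19 tested, among them the inhibitor gene Sufu (44.4 ± 7.80 CPM for controls, 45.3 ± 4.98 CPM for cKO; SD, n = 3), edgeR with library set called 0, with 1 higher and 2 lower at an unadjusted p under 0.05, and DESeq2 called 1 lower. Of 14 genes of the primary cilium, the organelle in which Smoothened acts, edgeR called 0, with 1 higher and 2 lower at an unadjusted p under 0.05, and DESeq2 called 2 lower. The medians were -0.04 and -0.07. Without cKO 1 the transduction list had 2 genes called higher and 1 lower.

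Genes known as hedgehog targets in some tissue went in both directions, 4 higher and 4 lower of 17 tested. The shares over all genes were 6.36% higher and 5.63% lower. Ccnd1, the D-type cyclin of dividing retinal progenitors, stood at 3870, 3595 and 3397 CPM in control libraries 2, 3 and 4, against 1601, 2124 and 1934 CPM in cKO 1, 2 and 3 (-0.95, SE 0.12, adjusted p = 0.00254, edgeR). Its relative Ccnd2 rose from 20.6 ± 4.58 to 50.7 ± 12.7 CPM (1.43, SE 0.14, adjusted p = 0.000824, edgeR; SD, n = 3). The Notch and hedgehog effector Hes1 (-0.82), the phosphatase gene Cdc25b (-0.52) and the transcription factor gene Prdm1 (-0.48) also fell. Those that rose besides Ccnd2 were the forkhead gene Foxf2 (2.76, at 1.23 CPM or less in every library), the secreted Wnt modulator Sfrp1 (1.07) and the Notch ligand gene Jag2 (0.44). Nkx2-1, Nkx2-2, Foxf1, Foxc2 and Foxl1, targets in ventral brain, gut or mesenchyme, were too low to be tested, with Foxl1 at 0 reads throughout. Without cKO 3, 2 fell and 1 rose in this list, without control 2, 2 fell and 3 rose, and with sex as a term 1 fell and 1 rose.

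**Figure D4:**
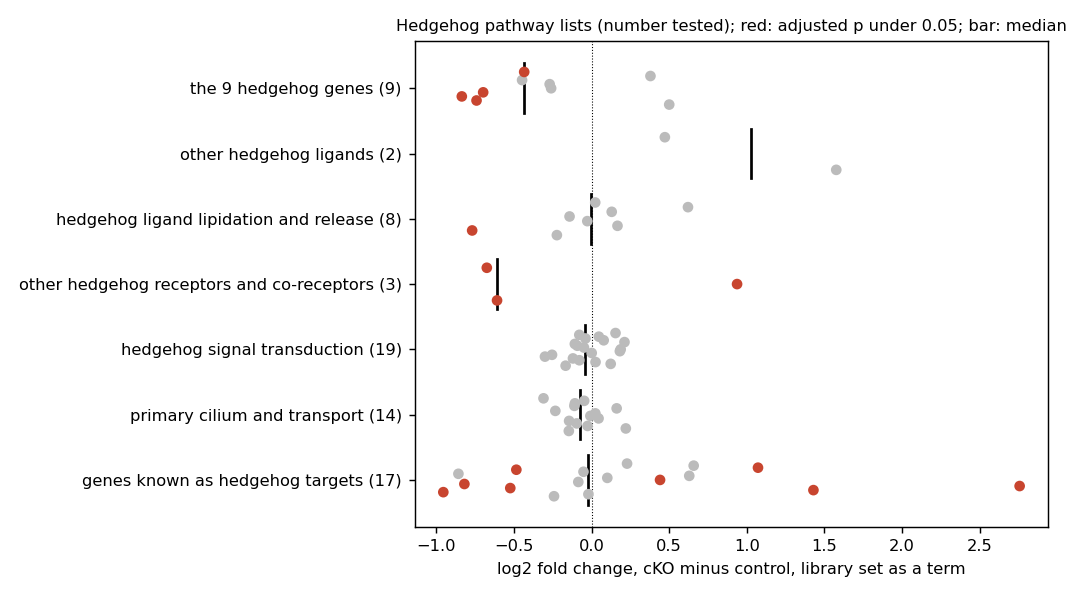
Each point is the edgeR log2 fold change of 1 gene (cKO minus control, library set as a term) in 7 pathway lists, red where adjusted p is under 0.05, with the list median as a black bar and the number tested in parentheses. The transduction and cilium lists lie close to 0 with 0 calls, while the calls stand among the 9 genes, the other receptors, Gpc3 and the target genes.

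Markers of the cells that make and receive the signal moved with genotype in the same fit. Of 16 retinal progenitor markers 11 fell and 1 rose. Of 16 cell cycle genes 15 fell and 0 rose (none higher at an unadjusted p under 0.05 or by DESeq2). Both counts stand beside 5.63% of all genes lower. The lists were chosen with earlier results of these data known. Dapl1 (-1.47), already known to fall in these data, and the floxed gene Lhx2 (-0.40) are among the 11 progenitor markers that fell. Genotype alone gave 0 calls in both lists, and with sex added 3 progenitor markers and 1 cell cycle gene were lower and 1 progenitor marker was higher. The summed level of the progenitor markers was 8272 to 8651 CPM in controls and 4678 to 6430 CPM in cKO. Ccnd1 was the largest part of that sum, at 3397 to 3870 CPM in controls and 1601 to 2124 CPM in cKO. Pax6, Six3, Sox9 and Hes5 did not pass.

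Set against the progenitor markers' mean log2 CPM in the same library, the differences in Gli1, Gli2, Smo and Cdon became smaller in each set, and others did not. The marker list holds Lhx2 itself, and Ccnd1 and Hes1, which are also in the list of hedgehog targets. That mean is therefore not independent of the pathway or of the floxed gene. The markers' own mean was 0.61 lower in cKO within set A and 0.35 lower within set B (log2 differences of -0.61 and -0.35). Sfrp2, the 1 marker called higher, rose by 2.21 within set A and 3.21 within set B and so raised that mean in cKO. A mean without Sfrp2 was not taken, and each gene's difference from it would lie higher. Dapl1, already known to fall in these data, went the other way, by -1.60 (set A) and -1.335 (set B). It lowered that mean in cKO, and a mean without Dapl1 was not taken. Relative to the mean of all 16 markers Gli1 differed by -0.27 in set A and -0.44 in set B, and Gli2 by -0.24 and -0.23. Cdon differed by -0.12 and -0.42, and Smo by 0.04 and 0.05. Ptch1 went from -0.26 in set A to 0.30 in set B, and Gli3 (0.05 and 0.35) and Hhip (0.21 and 0.21) were on the higher side in each set. Boc, fitted at 0.86 in set A and 0.14 in set B, differed here by 1.45 and 0.50. Shh was set only against ganglion cell markers. Against the cell cycle genes' mean the values were -0.22 and -0.27 for Gli1, -0.19 and -0.05 for Gli2, -0.07 and -0.24 for Cdon and 0.09 and 0.22 for Smo. These are differences of library values with no test, and the part of cell composition in the falls was not tested.

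**Figure D5:**
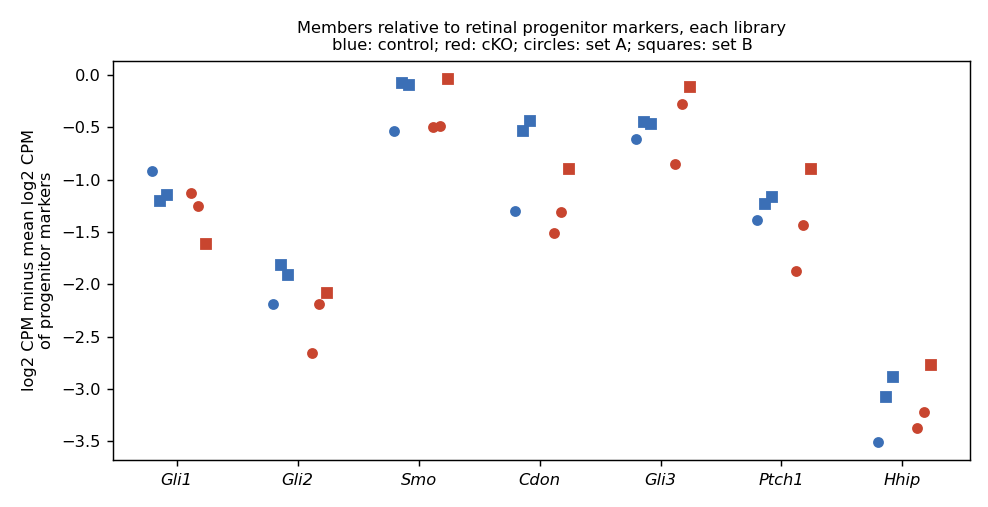
The y axis gives each library's log2 CPM of a gene minus the mean log2 CPM of 16 retinal progenitor markers in that library, with controls in blue, cKO in red, circles for set A and squares for set B. On this scale Gli1 in cKO 3 is the lowest of its 6 values at -1.61, and the Smo points of control and cKO lie together within each set. The marker mean includes Sfrp2, which rose in cKO and raises that mean there, and Dapl1, which fell and lowers it.

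Ganglion cell markers, from the cells that make the ligand, went the other way. Of 20 such markers 16 rose and 0 fell (none lower at an unadjusted p under 0.05 or by DESeq2), beside 6.36% of all genes higher, and their summed level was 2096 to 2588 CPM in controls and 3099 to 4409 CPM in cKO. Genotype alone gave 0 calls among these 20, and with sex added 2 were higher. The ganglion cell factor gene Pou4f2 stood at 43.5, 47.7 and 46.9 CPM in control libraries 2, 3 and 4, against 67.6, 63.0 and 106 CPM in cKO 1, 2 and 3, with no overlap (0.88, SE 0.12, adjusted p = 0.00389, edgeR), and Isl1 rose by 0.56 (SE 0.15). Atoh7, the factor of newly born ganglion cells, did not pass (-0.36, SE 0.37). Relative to the mean log2 CPM of the 20 markers Shh differed by 0.04 in set A and by -0.48 in set B, and Boc by 0.36 and -0.58.

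Other sources of hedgehog-responsive RNA were read from their markers in the fit with library set, which called 6.36% of all genes higher and 5.63% lower. Of 8 astrocyte markers 1 rose and 0 fell, with 2 higher and none lower at an unadjusted p under 0.05 and 1 higher by DESeq2; the summed level was 322 to 677 CPM in controls and 398 to 711 CPM in cKO. Pax2 (-0.05, SE 0.16) and Gfap (-0.02, SE 0.22) did not pass. Nkx2-1, a defining gene of the Shh-expressing ventral forebrain, had 0 reads in 5 libraries and 0.03 CPM in cKO 2, and Foxa2 had 0 reads in all 6. Of the whole hypothalamus and forebrain list, 10 genes, 6 were tested, of which 3 rose, Otp and Sim1 among them, and Foxd1 fell; the summed level was 320 to 967 CPM in controls and 296 to 910 CPM in cKO, most of it Six3. Otp, a hypothalamic homeobox gene, was at 0.03 to 0.13 CPM in controls and at 4.31 to 15.4 CPM in cKO. All 8 tested lens genes rose, from a summed 2.39 to 5.18 CPM in controls to 764 to 1989 CPM in cKO, with Lim2 and Foxe3 too low to be tested. The part of forebrain and lens RNA in the values of the 9 genes was not tested.

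The genes most like Shh and Gli1 across the 6 libraries were found by Pearson's r of log2 CPM after each set's mean was taken off, among 12967 genes of mean CPM of at least 2. For Shh they were 0610040J01Rik (r = 0.999), Ddx25 (0.999), Taf13 (0.998), Dpysl2 (0.997) and Dnajb9 (0.996). For Gli1 they were Ncaph2 (0.9996), Lfng (0.999), Wdr33 (0.999), Prdx4 (0.998) and Irf2 (0.998). With 6 libraries, 2 set means removed and 12967 genes searched, such values of r are a description only. Lfng, which encodes a glycosyltransferase that modifies Notch, was called (-0.59, SE 0.08, adjusted p = 0.00267, edgeR), and Ncaph2 and Prdx4 were called at smaller sizes (-0.37 and -0.39).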

How the data were processed

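Retinal RNA of newborn mice had been sequenced from 6 Illumina TruSeq libraries, per the labels' protocols. Each deposited file holds 1 library as raw read counts per gene (whole numbers); STAR, HTSeq and GRCm38 are named in the submitters' processing notes, with no strand setting. The 5 rows that name no gene (26.4 to 28.8% of counts) stayed out of library sizes and tests. Symbols, positions and exon lengths came from GENCODE vM21 (GRCm38), which matched 96.2% of identifiers, and promoters from RefSeq (GRCm38.p6).

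The tests used edgeR 4.0.16 (R 4.3.3), with filterByExpr on the 2 groups, TMM scaling, glmQLFit and glmQLFTest with genotype and library set (set A: over 2.9% of counts ambiguous), Benjamini-Hochberg adjustment over 16691 genes and a threshold of 0.05. The common dispersion was 0.0176, and 3 residual degrees of freedom were left. Each SE is the size of the log2 fold change over the root of F. CPM are TMM-scaled, log2 CPM have a prior count of 2, and a CPM per kb divides by the summed exon length. On simulated counts for cKO against control with library set (16691 genes), 41.8% of changes of 1.5-fold, 97% of 2-fold and 100% of 4-fold were recovered, with 5 false calls. Every simulated gene had the common dispersion, and changes were placed only in genes of mean CPM of at least 2. Spread particular to a gene or a library was therefore left out, so these rates need not hold for the real counts. Alternatives were no library set, sex as a further term, the label number as a block, RLE or no scaling, other filters, DESeq2 1.42.0, limma-voom (limma 3.58.1) and leaving out each library. DESeq2 with genotype alone was added after the data were seen.

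The 9 genes, the lists and library set as a term were chosen with earlier results of these data known. Named were the 9 genes; of other pathway lists the called genes, at most 12 by p, with Ihh, Dhh, Gas1 and Sufu; 5 genes most like Shh and Gli1; and fixed markers. Lfng and other genes of that search were described further after their values were seen. Protein comparisons were not made, and some genes that are counted within lists are not reported by name here. Counting error weighs on genes of few reads: Shh and Boc, and more so Dhh, Ihh and Foxf2, at 1.69 CPM or less in every library.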

Additional observations from a re-analysis of the deposited data

How the results depend on the processing

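Of the 16 alternatives, Gli1 stayed below 0 and called in 14, Cdon in 12, Gli2 and Smo in 10 each. Ptch1, Gli3 and Hhip stayed below 0 and Boc above 0 in all 16. With genotype alone Gli1 was at -0.71, Gli2 at -0.77, Smo at -0.55 and Cdon at -0.94, none of them called, Shh reversed to -0.10, and 36 genes were called. DESeq2 with genotype alone gave -0.74, -0.81, -0.58 and -0.98 for these 4, none called, -0.14 for Shh, and 468 genes. With sex as a further term Gli2 (-0.73), Smo (-0.41) and Cdon (-0.72) lost their calls and 236 genes were called. Without a low-count filter Gli3 (-0.29) and Ptch1 (-0.47) were also called, among 3063 genes. Leaving out single libraries gave 310 to 2707 genes (720 without control 2, 997 without control 3, 1268 without control 4, 310 without cKO 3), -0.82 to -0.565 for Gli2 (-0.696 without control 3, -0.785 without cKO 3), -0.53 to -0.31 for Smo (-0.452 without control 3) and -0.82 to -0.68 for Cdon. The calls were lost without control 2 (Gli2, Smo), control 3 (Gli2, Smo) or cKO 3 (Gli2, Smo, Cdon); such fits compare fewer samples, and the cause of the other changes was not tested. The count of all genes was within 1.5 times the reported 2001 in 8 of 16 alternatives; DESeq2 with library set called 1204 higher and 1672 lower, against 1062 and 939 reported, and scaling moved the median of all genes by under 0.04.

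The label numbers 2 and 3 occur in both groups, and their libraries deviated together (correlations of 0.770 and 0.674), each pair lying within 1 library set. With the label number as a replicate block in place of library set, 2040 genes and the same 4 of the 9 genes were called. Control 4 and cKO 1 share their numbers with no other library. The genotype effect of that fit therefore rests on the pairs numbered 2 and 3 alone. The block changed no other call of the 9. Depth limits Shh and Boc, with at most 294 reads in a library, and more so genes under 1 CPM. The planned comparison of protein sequences was not run.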

Other observations

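Vascular and microglial markers also moved between the groups, in the fit with library set. With genotype alone no gene of either list was called, and with sex added 2 vascular markers were higher and no microglial one; over all genes the fit with library set called 6.36% higher and 5.63% lower. Of 8 endothelial and pericyte markers 6 rose and 1 fell: Cdh5, which encodes the endothelial cadherin, stood at 1.81, 3.08 and 3.98 CPM in control libraries 2, 3 and 4, against 4.21, 6.87 and 21.1 CPM in cKO 1, 2 and 3, and the pericyte gene Rgs5 rose by 2.24 on the log2 scale (SE 0.16). Kdr, the receptor gene that retinal progenitors also express, fell (-0.71, SE 0.14). The summed level of that list was 546 to 721 CPM in controls and 296 to 579 CPM in cKO, since Kdr makes up most of it. Of 8 microglial markers 5 rose and 0 fell, with 6 higher and none lower at an unadjusted p under 0.05 and 5 higher by DESeq2. Dhh and Foxf2 were higher in every cKO library than in any control, at 1.69 CPM or less throughout. Dhh did not pass the threshold, and the share of all genes with that arrangement is not reported here. The part of vascular cells in the levels of Dhh and Foxf2 was not tested. Amacrine markers were divided, with Neurod2 higher (1.46, SE 0.20), Ptf1a lower (-0.79, SE 0.19) and 8 of 10 not passing. No marker of the pigment epithelium passed among the 7 tested, with 2 higher and none lower at an unadjusted p under 0.05 in edgeR and 0 called by DESeq2.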
